A study of Mus musculus with 6 samples.

Results

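The genes of the pre-mRNA splicing machinery were examined in microglia that had been co-cultured with neutrophils from the injured spinal cord. The genes were taken by name, as all protein-coding mouse genes whose symbol starts with Snrp, Sf3a, Sf3b, Srsf or Prpf, or with Lsm and a digit, and whose mean over the 6 libraries was at least 1 FPKM (fragments per kilobase of transcript and per 1e+06 fragments mapped). The names matched 58 protein-coding genes, and 56 of them reached the minimum, among 11395 genes of any name and type. Of the 56, 11 were Snrp, 3 Sf3a, 6 Sf3b, 13 Lsm, 13 Prpf and 10 Srsf genes. The other 2, Snrpn and Srsf12, were listed at 0 in every library. The lowest mean among the 56 was 4.44 FPKM (Prpf40b), so none of them lay near the minimum.

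Both groups held primary microglia of newborn C57BL/6 mice with an intact Cd177 gene, collected by shaking cultures of mixed glia on day 14. The donors of the neutrophils were adult males by the study's methods, and the Cd177-/- line was bought in. The microglia were kept for 24 h with neutrophils drawn by magnetic sorting from spinal cord lesions 3 days after spinal cord injury (SCI), and were then recovered by flow sorting as Ly6G-negative cells. The neutrophils came from WT mice in one group and Cd177-/- (KO) mice in the other, so that CD177, a surface protein of neutrophils, was missing only from the neutrophils. There were 3 libraries with WT and 3 with KO neutrophils, and the labels do not say whether those of a group came from separate cultures, so the p-values may measure technical spread alone. No group of microglia without neutrophils was analysed here.

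Splicing removes introns from nascent transcripts. The U1 and U2 small nuclear ribonucleoproteins (snRNPs) mark the ends and the branch site of an intron, the U4/U6.U5 tri-snRNP joins them, and the assembled spliceosome is then remodelled into its active form. Most of these particles are built on a ring of Sm proteins, U6 carries a ring of LSM proteins, and SR proteins, named for their stretches of arginine and serine, guide the machinery to exons. The genes are active in practically every cell type and are commonly raised in growing cells.

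The libraries were alike within a group. Pearson's r of log2(FPKM + 1) across genes was 0.988 to 0.989 within a group and 0.956 to 0.959 between groups (genes are not independent replicates). Cd177 had 0.113 to 0.477 FPKM in the WT co-cultures, against 0.0217 to 0.109 FPKM in the KO co-cultures, too low to check the genotype. Of 12 microglia and macrophage markers 9 had a mean of at least 1 FPKM, but P2ry12, Tmem119 and Aif1 stayed below 1 FPKM in every library. The summed level of these 12 was 1198 to 1253 FPKM in the WT and 1414 to 1465 FPKM in the KO co-cultures, and its part in the results below was not tested. Not every marker was higher, since Cx3cr1 had 2.41 to 2.98 FPKM in the WT and 0.956 to 1.43 FPKM in the KO co-cultures, and the groups overlapped for Itgam, Lyz2, P2ry12 and Aif1. None of 12 neutrophil markers had a mean of at least 1 FPKM, 6 of them, Ly6g, S100a9, Mpo, Elane, Retnlg and Ltf, were listed at 0 in every library, and the summed level of the 12 was 1.82 to 2.02 FPKM in the WT co-cultures, against 0.769 to 1.19 FPKM in the KO co-cultures. Of 6 astrocyte and 6 oligodendrocyte markers none had a mean of at least 1 FPKM. Mitochondrially encoded genes held 11.1% to 11.32% of all FPKM in the WT co-cultures, against 14.31% to 14.62% with KO neutrophils, and the part of this difference in the results below was tested only through the scalings named there.

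Splicing factor genes were more often higher than lower with KO neutrophils, and the differences were small. Of the 56 genes 25 rose (44.6%), 3 fell (5.36%) and 28 did not pass the test, at an adjusted p under 0.05 (limma, Benjamini-Hochberg over all genes tested). Of all genes tested 24.5% rose and 18.8% fell, 43.3% in all, against 50% of the splicing factor genes. Their median log2 change was 0.12, beside 0.02 for all genes tested. The largest rises were those of Snrpd1 (0.71), Srsf2 (0.68), Sf3b3 (0.61) and Srsf3 (0.53), and the 3 falls were those of Prpf40b (-0.30), Lsm14a (-0.28) and Prpf4 (-0.19). In bulk libraries fewer cells of a kind and less RNA per cell cannot be told apart. None of the 56 changed by more than 2-fold, and few of all genes tested did so with an unadjusted p under 0.05 (2.57%). The median size of the log2 change was 0.271 for the called splicing factor genes, beside 0.319 for all called genes. There were 17 genes with a log2 change of less than 0.1 in size.

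The groups were without overlap for all but 22 of the 56 genes. In 28 of them all KO libraries were higher than all WT libraries (50%, beside 31.3% of all genes tested), and in 6 all WT libraries were higher than all KO libraries (10.7%, beside 24.6%). The 28 called genes were among these, and 6 separated genes were not called. The exact two-sided permutation test gave p = 0.1 for each of them, the smallest value that 3 libraries against 3 allow. Together the 56 genes made up 0.417% to 0.427% of all FPKM in the WT co-cultures, against 0.450% to 0.461% with KO neutrophils.

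**Figure D1:**
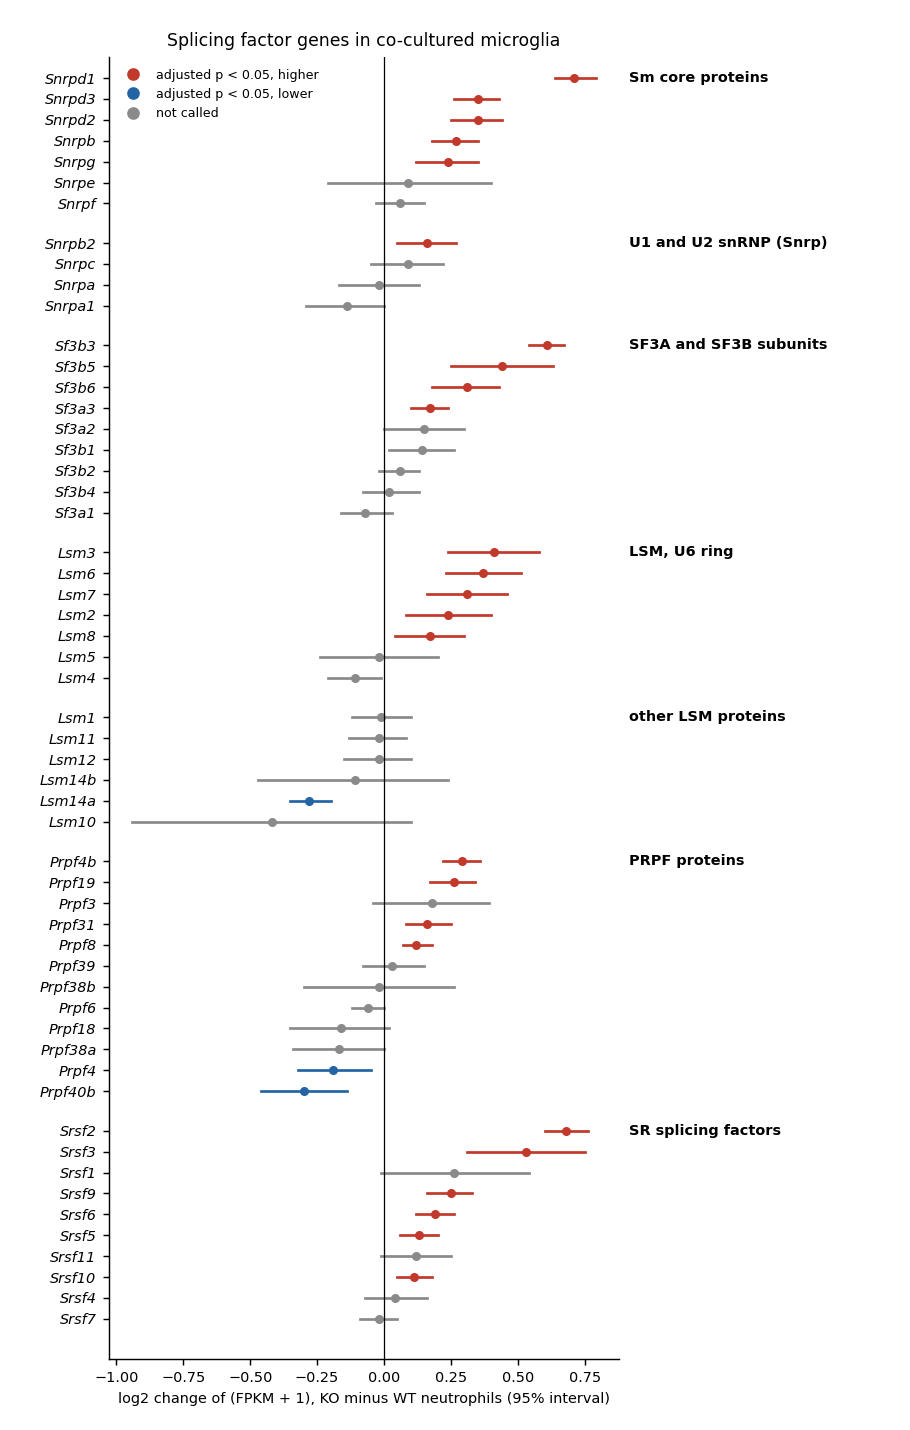
Log2 change of (FPKM + 1), KO minus WT neutrophils, for the splicing factor genes reported singly, grouped by role, with points for the fitted change and lines for its 95% interval (limma, 3 libraries per group). Red marks the 25 genes that rose, blue the 3 that fell and grey those that did not pass an adjusted p of 0.05.

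The split between rises and falls depended on the scale. After rescaling every library to a common sum, as in TPM, 19 of the genes rose and 7 fell (73.1% of the calls higher, against 89.3% on the deposited scale), and 22 of the 28 calls were shared. Over all genes tested 19.1% then rose and 23.3% fell. The median log2 change was then 0.077, beside -0.021 for all genes tested. When the common sum left out the mitochondrial genes, the counts were again 25 and 3, and over all genes tested 24.8% rose and 18.5% fell.

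The Sm core proteins form the ring around the snRNAs of U1, U2, U4 and U5. Of 7 genes above the minimum 5 rose and none fell (71.4% called higher, beside 24.5% higher and 18.8% lower over all genes tested), with a median log2 change of 0.27. Snrpd1, which encodes SmD1, had 18.2, 19.1 and 19.0 FPKM in the WT co-cultures, against 31.2, 31.0 and 32.0 FPKM in the KO co-cultures. The means were 18.8 ± 0.496 and 31.4 ± 0.557 FPKM (SD, n = 3 per group), and the log2 change was 0.71 (SE 0.031, limma adjusted p = 1.11e-05), the largest among the 56. The groups were far apart relative to the spread within each.

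Snrpd3 and Snrpd2 rose to a like extent. Snrpd3 had 16.2, 17.6 and 17.1 FPKM in the WT co-cultures, against 21.9, 21.7 and 21.8 FPKM in the KO co-cultures (log2 difference 0.35, SE 0.036, adjusted p by limma = 0.000517). Snrpd2 had 16.7, 17.1 and 17.3 FPKM in the WT co-cultures, against 20.8, 22.5 and 22.4 FPKM in the KO co-cultures (log2 difference 0.35, SE 0.039, adjusted p by limma = 0.000762). On the FPKM scale the 3 SmD transcripts had nearly equal levels with WT neutrophils, but with KO neutrophils Snrpd1 stood above the other two. Whether its change differed from theirs was not tested.

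Snrpb, which encodes SmB and was the most abundant of the Sm transcripts per length, had 56.7, 57.5 and 56.7 FPKM in the WT co-cultures, against 67.4, 72.1 and 66.7 FPKM in the KO co-cultures. The log2 difference was 0.27 (SE 0.034, adjusted p by limma = 0.00128). Snrpg rose from 19.9 ± 1.20 to 23.6 ± 0.464 FPKM (SD, n = 3 per group; difference of 0.24 on the log2 scale, adjusted p by limma = 0.00812). Snrpf and Snrpe, the partners of Snrpg in the ring, did not pass. Snrpf had 48.2 ± 1.36 and 50.2 ± 2.02 FPKM (SD, n = 3 per group; 95% interval of the log2 change -0.03 to 0.15). Snrpe varied from 26.8 to 35.4 FPKM over the 6 libraries, with both groups covering most of that range (interval -0.21 to 0.40).

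Of the 4 U1 and U2 proteins of the Snrp family 1 rose, close to the 24.5% over all genes tested. This was Snrpb2, which encodes the U2 protein B'' and rose from 28.5, 29.3 and 26.2 FPKM to 30.9, 31.9 and 31.2 FPKM (log2 difference 0.16, SE 0.045, adjusted p by limma = 0.0299). Its partner in U2, Snrpa1, had 22.7 ± 1.78 FPKM in the WT co-cultures, against 20.4 ± 0.702 FPKM in the KO co-cultures (SD, n = 3 per group; difference of -0.14 on the log2 scale, adjusted p by limma = 0.102), and was called lower on the TPM scale (-0.197, adjusted p = 0.0492). The U1 proteins Snrpa and Snrpc had log2 changes of -0.02 and 0.09, and their groups overlapped. The call of Snrpb2 was lost on the TPM scale (limma adjusted p = 0.0924) and without KO replicate 1 (0.0616), KO replicate 2 (0.0873), KO replicate 3 (0.0708) or WT replicate 1 (0.0557), and with no filter on low values (0.0639).

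SF3A and SF3B are the parts of the U2 snRNP that hold the branch site. Of their 9 genes 4 rose and none fell, so that 44.4% were called, close to the 43.3% over all genes tested, of which 24.5% were higher and 18.8% lower. Sf3b3, a scaffold subunit, had 15.2, 15.7 and 15.2 FPKM in the WT co-cultures, against 24.2, 23.9 and 23.7 FPKM in the KO co-cultures (log2 difference 0.61, SE 0.028, adjusted p by limma = 1.56e-05). The SD within a group was at most 0.275 FPKM, and the ratio of the means was 1.56. Sf3b3 shares 188 exon bases with Cog4 on the opposite strand, and the use of strand in the counting is not given in the sources used here.

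The small SF3B subunits moved the same way. Sf3b5 had 6.39, 6.75 and 5.46 FPKM in the WT co-cultures, against 8.24, 8.70 and 9.31 FPKM in the KO co-cultures (log2 difference 0.44, SE 0.080, adjusted p by limma = 0.00569). Sf3b6, whose product lies close to the branch-point adenosine, had 12.6, 14.1 and 12.7 FPKM and 16.2, 17.0 and 16.2 FPKM (log2 difference 0.31, SE 0.050, adjusted p by limma = 0.0037). In SF3A, Sf3a3 rose from 30.3 ± 0.734 to 34.1 ± 0.524 FPKM (SD, n = 3 per group; difference of 0.17 on the log2 scale, adjusted p by limma = 0.00421).

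The other 5 subunits did not pass. Sf3b1, the largest subunit and a target of recurrent mutation in blood cancers, had 33.2, 29.7 and 32.9 FPKM in the WT co-cultures, against 35.6, 36.1 and 33.9 FPKM in the KO co-cultures. Its groups did not overlap, but the adjusted p was 0.0685 (limma, log2 change 0.14, 95% interval 0.02 to 0.26). Sf3a2, Sf3b2, Sf3b4 and Sf3a1 had log2 changes of 0.15, 0.06, 0.02 and -0.07. Within SF3A and SF3B the ratios of the KO over the WT means ran from 0.953 for Sf3a1 to 1.56 for Sf3b3.

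**Figure D2:**
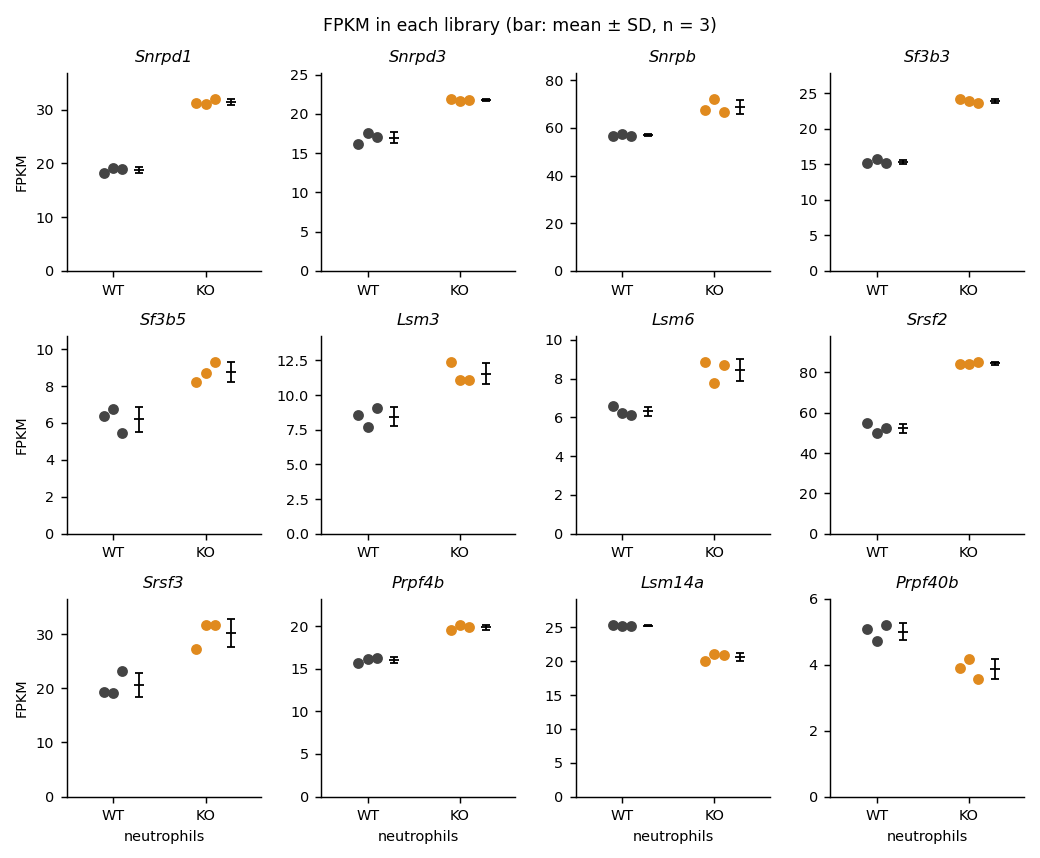
FPKM in each library for 12 splicing factor genes, with a dot for each of the 3 libraries per group and a bar for the mean ± SD. The vertical axes start at 0. The 12 were picked from the called genes, none of which overlapped between the groups, so separation in every panel follows from the choice. KO is lower for Lsm14a and Prpf40b and higher for the other genes.

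The LSM proteins fall into those that ring the U6 snRNA (LSM2 to LSM8) and those of other particles. Of the 7 genes of the U6 ring 5 rose and none fell (71.4% higher, beside 24.5% higher and 18.8% lower over all genes tested), with a median log2 change of 0.24. Lsm3 had 8.58, 7.71 and 9.04 FPKM in the WT co-cultures, against 12.4, 11.1 and 11.1 FPKM in the KO co-cultures (log2 difference 0.41, SE 0.069, adjusted p by limma = 0.00408). Lsm6 had 6.58, 6.25 and 6.14 FPKM and 8.87, 7.80 and 8.71 FPKM (log2 difference 0.37, SE 0.057, adjusted p by limma = 0.00301). The ratios of the means were 1.37 and 1.34, and the libraries of the groups did not overlap.

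Lsm7 and Lsm2 were called higher as well. Lsm7 had 5.60 ± 0.107 FPKM in the WT co-cultures, against 7.22 ± 0.618 FPKM in the KO co-cultures (SD, n = 3 per group; difference of 0.31 on the log2 scale, SE 0.062, adjusted p by limma = 0.00783). Lsm2 had 9.63 ± 0.523 and 11.5 ± 0.924 FPKM (SD, n = 3 per group; difference of 0.24 on the log2 scale, adjusted p by limma = 0.0279). Lsm8, the subunit that sets the nuclear ring apart from the cytoplasmic one, was called at an adjusted p of 0.0453 (limma, log2 change 0.17), just inside the threshold. The calls of Lsm2 and Lsm8 were lost on the TPM scale (limma adjusted p = 0.0521 and 0.118). That of Lsm2 was also lost without KO replicate 2 (0.0547), KO replicate 3 (0.059), WT replicate 1 (0.0827) or WT replicate 3 (0.0747), and that of Lsm8 without KO replicate 2 (0.121), KO replicate 3 (0.0942) or any WT replicate (0.0632, 0.0921 and 0.121 for replicates 1 to 3). With no filter on low values both calls were lost (0.0642 for Lsm2 and 0.0868 for Lsm8), and that of Lsm8 was lost with the length and GC correction (0.0621).

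In the same ring Lsm4 and Lsm5 did not pass. Lsm4, by far the most abundant of the LSM transcripts per length, had 64.5, 68.9 and 64.8 FPKM in the WT co-cultures, against 63.3, 58.1 and 62.1 FPKM in the KO co-cultures (log2 change -0.11, limma adjusted p = 0.0795). All its WT libraries lay above all its KO libraries, and it was called lower on the TPM scale (-0.160, adjusted p = 0.0182). Lsm5 had 15.3 to 19.8 FPKM in the WT co-cultures, against 17.4 to 17.8 FPKM in the KO co-cultures, with overlap.

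Outside the U6 ring none of 6 LSM genes rose and 1 fell, where 24.5% and 18.8% of all genes tested did so. Lsm14a, a component of processing bodies, where messenger RNAs are stored and repressed, had 25.4, 25.2 and 25.2 FPKM in the WT co-cultures, against 20.0, 21.1 and 20.9 FPKM in the KO co-cultures (log2 difference -0.28, SE 0.030, adjusted p by limma = 0.000666). Lsm1, which takes the place of LSM8 in the cytoplasmic ring that promotes mRNA decay, had 10.1 ± 0.507 and 9.96 ± 0.115 FPKM (SD, n = 3 per group; 95% interval of the log2 change -0.12 to 0.10). The fitted log2 changes of the LSM genes outside the ring ran from -0.42 to -0.01.

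Lsm10 and Lsm11 belong to the U7 snRNP, which processes histone messenger RNAs. Lsm10 had the most negative log2 change of the 56 (-0.42) but did not pass (limma adjusted p = 0.166), and its KO replicate 1 had 7.91 FPKM and the other KO libraries 3.94 and 4.61 FPKM, against 6.73 to 8.05 FPKM in the WT co-cultures. Without KO replicate 1 its log2 change was -0.671 with an adjusted p of 0.00459. Lsm11 had 5.91 ± 0.157 and 5.79 ± 0.127 FPKM (SD, n = 3 per group). Lsm12 and Lsm14b overlapped between the groups as well.

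The 13 Prpf genes encode proteins that act at several stages of the cycle. Of these 4 rose and 2 fell, shares not far from the 24.5% and 18.8% over all genes tested, and their median log2 change was -0.01. Prpf4b, a kinase that phosphorylates splicing factors, had 15.7, 16.2 and 16.3 FPKM in the WT co-cultures, against 19.6, 20.2 and 19.9 FPKM in the KO co-cultures (log2 difference 0.29, SE 0.031, adjusted p by limma = 0.000563). Prpf19, a ubiquitin ligase that helps to activate the spliceosome, had 16.2, 17.0 and 16.1 FPKM and 19.9, 19.3 and 20.2 FPKM (log2 difference 0.26, SE 0.034, adjusted p by limma = 0.00152). For both, the KO libraries lay above the WT libraries by more than the spread within either group.

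Prpf8, the U5 protein at the catalytic centre and the most abundant of the 56 transcripts per length, rose from 77.2 ± 0.654 to 84.1 ± 1.80 FPKM (SD, n = 3 per group). This is a ratio of 1.09 (log2 difference 0.12, SE 0.023, adjusted p by limma = 0.0068). Prpf31, a U4/U6 protein, rose from 18.0 ± 0.494 to 20.3 ± 0.621 FPKM (SD, n = 3 per group; difference of 0.16 on the log2 scale, adjusted p by limma = 0.0121), a call that the TPM scale did not keep (adjusted p = 0.0525).

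Both falls of this family were modest. Prpf40b, a U1-associated protein, had 5.09, 4.71 and 5.22 FPKM in the WT co-cultures, against 3.90, 4.18 and 3.56 FPKM in the KO co-cultures (log2 difference -0.30, SE 0.066, adjusted p by limma = 0.0115). Prpf4, a U4/U6 protein, fell from 8.56 ± 0.524 to 7.40 ± 0.355 FPKM (SD, n = 3 per group; difference of -0.19 on the log2 scale, adjusted p by limma = 0.0377), and this call was lost without KO replicate 2 (adjusted p = 0.106), KO replicate 3 (0.0813), WT replicate 1 (0.0678) or WT replicate 2 (0.0925), with the length and GC correction (0.0693) and with no filter on low values (0.0762).

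None of the other Prpf genes passed. The log2 changes were 0.18 for Prpf3, 0.03 for Prpf39, -0.02 for Prpf38b, -0.06 for Prpf6, -0.16 for Prpf18 and -0.17 for Prpf38a. On the TPM scale Prpf6 (-0.109, limma adjusted p = 0.0245) and Prpf38a (-0.234, adjusted p = 0.0454) were called lower, so that 3 Prpf genes rose and 4 fell there. Of the U4/U6 proteins Prpf31 was thus called higher and Prpf4 lower, and Prpf3 was not called, at 15.9 ± 1.04 and 18.2 ± 2.06 FPKM (SD, n = 3 per group). Without KO replicate 2 the log2 change of Prpf3 was 0.266, with an adjusted p of 0.0237 (limma).

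The SR splicing factors bind exon sequences and help to recruit U1 and U2. Of 10 genes 6 rose and none fell (60% higher, beside 24.5% higher and 18.8% lower over all genes tested), with a median log2 change of 0.16. Srsf2 (SC35), a protein of nuclear speckles, had 54.7, 50.2 and 52.3 FPKM in the WT co-cultures, against 84.0, 84.3 and 85.3 FPKM in the KO co-cultures (log2 difference 0.68, SE 0.034, adjusted p by limma = 2.08e-05). Srsf3, which also serves in mRNA export, had 19.4, 19.2 and 23.2 FPKM and 27.2, 31.8 and 31.7 FPKM (log2 difference 0.53, SE 0.091, adjusted p by limma = 0.00446). These were the largest changes of the family, with ratios of the means of 1.61 and 1.47.

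Srsf9 and Srsf6 followed. Srsf9 had 32.0, 30.4 and 29.9 FPKM in the WT co-cultures, against 35.7, 36.9 and 37.4 FPKM in the KO co-cultures (log2 difference 0.25, SE 0.035, adjusted p by limma = 0.00198). Srsf6 had 56.6, 57.3 and 58.3 FPKM and 63.8, 65.7 and 67.3 FPKM (log2 difference 0.19, SE 0.027, adjusted p by limma = 0.00212). The rises of Srsf5 (0.13) and Srsf10 (0.11) were smaller, and on the TPM scale neither was called (0.085, adjusted p = 0.0557, and 0.070, adjusted p = 0.0941). Without KO replicate 3 the log2 change of Srsf10 was 0.107, with an adjusted p of 0.0506 (limma).

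Srsf1, an abundant SR protein that acts on both constitutive and alternative exons, did not pass, and 1 of its libraries stood apart. It had 43.3, 40.6 and 41.2 FPKM in the WT co-cultures, against 46.2, 60.9 and 45.0 FPKM in the KO co-cultures (log2 difference 0.26, SE 0.113, adjusted p by limma = 0.107). All KO libraries lay above all WT libraries, and without KO replicate 2 the log2 change was 0.127 with an adjusted p of 0.0487. Srsf11 was also separated without being called (0.12, adjusted p = 0.12). Srsf4 and Srsf7 overlapped, with 95% intervals of -0.07 to 0.16 and -0.09 to 0.05.

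The RefSeq promoter windows of 3 of the members with the largest rises, and of Lsm14a, which fell, are shown so that their letters can be read beside the values above. Given are the 250 bases before the annotated start, 5′ to 3′ on the strand of the gene, from RefSeq on GRCm38.p6. Shown are Srsf2 (chr11:116853095-116853344, minus strand), Sf3b3 (chr8:110846804-110847053, minus strand), Srsf3 (chr17:29032410-29032659, plus strand) and Lsm14a (chr7:34389706-34389955, minus strand). Capitals mark matches on either strand to CCAAT, the GC box GGGCGG, the ETS core CCGGAAG, the TATA box TATAAA, the E-box CACGTG and the NRF1 core GCATGCGC.
Srsf2: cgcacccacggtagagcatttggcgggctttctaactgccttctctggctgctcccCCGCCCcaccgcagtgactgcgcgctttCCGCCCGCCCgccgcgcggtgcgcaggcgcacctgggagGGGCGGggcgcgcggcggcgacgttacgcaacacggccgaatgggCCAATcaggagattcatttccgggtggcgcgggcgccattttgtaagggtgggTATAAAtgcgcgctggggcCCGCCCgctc
Sf3b3: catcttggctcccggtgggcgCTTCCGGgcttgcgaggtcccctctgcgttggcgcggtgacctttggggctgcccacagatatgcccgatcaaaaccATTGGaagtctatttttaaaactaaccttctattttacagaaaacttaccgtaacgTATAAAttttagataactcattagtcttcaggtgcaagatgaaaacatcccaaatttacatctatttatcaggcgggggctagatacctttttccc
Srsf3: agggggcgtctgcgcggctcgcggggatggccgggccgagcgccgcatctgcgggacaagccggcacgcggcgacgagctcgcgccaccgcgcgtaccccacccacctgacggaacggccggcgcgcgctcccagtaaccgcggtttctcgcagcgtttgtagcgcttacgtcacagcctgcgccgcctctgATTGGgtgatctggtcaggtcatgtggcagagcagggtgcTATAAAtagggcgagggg
Lsm14a: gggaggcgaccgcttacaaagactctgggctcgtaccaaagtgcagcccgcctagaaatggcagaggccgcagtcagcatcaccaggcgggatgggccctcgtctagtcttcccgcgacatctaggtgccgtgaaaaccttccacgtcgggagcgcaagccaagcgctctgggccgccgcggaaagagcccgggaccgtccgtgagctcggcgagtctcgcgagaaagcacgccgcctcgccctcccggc

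In these windows Srsf2 and Srsf3 held a CCAAT box and a TATA box close to the start, at -29 for the TATA box of Srsf2 and at -18 for that of Srsf3. Srsf2 held 5 GC boxes, some of which overlapped one another. The Lsm14a window held none of the 6 motifs. By GENCODE M21, used here for positions, Lsm14a spans chr7:34344646-34393315, so its RefSeq window lies inside the gene and not before that start. RefSeq windows were matched for 47 of the 56 members, 57 windows in all, since some genes have several starts.

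Over all these windows the ETS core was found in 35.1% of the members' windows, beside 15.3% of the 10220 windows of genes tested and 6.91% of all 32851 windows. The GC box was found in 61.4%, beside 58.5% and 32.7%, and CCAAT in 36.8%, beside 35.8% and 33.8%. The E-box was found in 8.77%, beside 8.72% and 6.02%, the NRF1 core in 8.77%, beside 4.86% and 2.26%, and TATAAA in 7.02%, beside 6.01% and 12.4%. Among the 25 windows of members that rose, CCAAT was in 11, the GC box in 15, the ETS core in 8, the NRF1 core in 2 and the E-box in 0. TATAAA was in 3 of the 25, those of Srsf2, Sf3b3 and Srsf3 shown above. Such matches describe letters, not binding, and members with several starts count more than once.

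**Figure D3:**
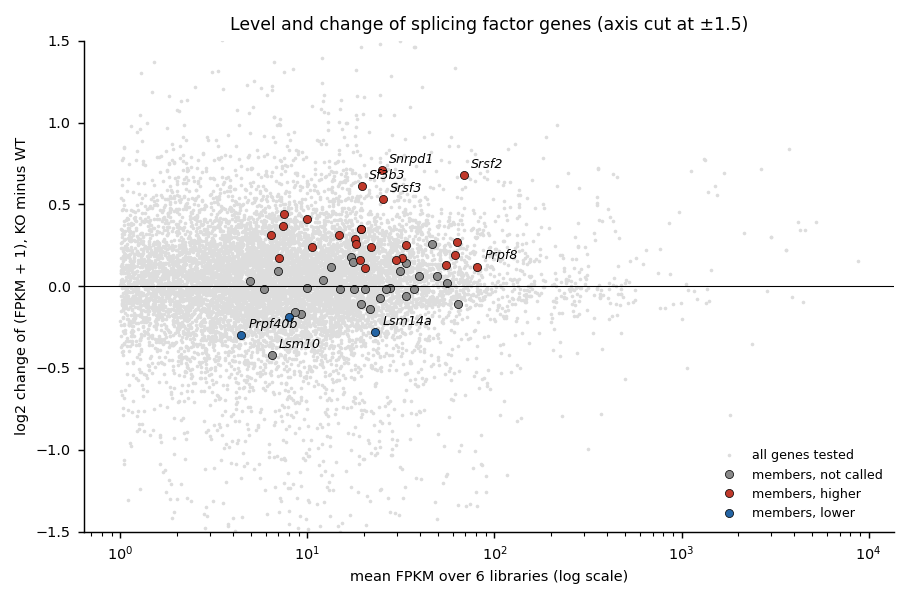
Log2 change of (FPKM + 1), KO minus WT neutrophils, against the mean FPKM over 6 libraries on a log axis, for all genes tested (light grey) and for the 56 splicing factor genes (large points). The vertical axis ends at -1.5 and 1.5, which leaves out 115 of all genes and none of the members. Members lie between 4.44 and 80.7 FPKM, and the changed ones are spread over that range.

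The splicing factor genes were expressed above most other genes, with a median of 19.5 FPKM beside 7.91 FPKM for all genes tested. Their median within-group coefficient of variation was 3.59%. Rises were found among both short and long transcripts. Of the 22 members with a median transcript under 1500 bases 12 rose and 1 fell (median log2 change 0.153), and of the 34 longer ones 13 rose and 2 fell (median 0.085). Over all genes tested 24.2% of the shorter rose and 15% fell (median 0.037), and 24.7% of the longer rose and 21.4% fell (median 0.014). With a correction for length and GC content the counts of rises and falls were again 25 and 3, and 26 of the 28 calls were shared. Over all genes tested 24.6% then rose and 18.7% fell.

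Several members have near-identical copies in the genome, mostly processed pseudogenes, between which reads can be split. Of the 56 members 16 had a copy with at least 95% identity over 200 bases, and for 13 of them a copy reached 1 FPKM in at least 1 library. The values of these 13 are therefore uncertain. The copy of Snrpg, Gm8186, had 50.1, 50.8 and 55.2 FPKM in the WT co-cultures, against 66.3, 67.5 and 71.9 FPKM in the KO co-cultures (its own log2 change 0.39, limma adjusted p = 0.00107), above Snrpg itself, and the copy is 231 bases long. The copy of Lsm7, Gm10146, had 11.7, 12.3 and 10.2 FPKM and 19.3, 18.3 and 16.7 FPKM (log2 change 0.63, limma adjusted p = 0.00119). That of Srsf3, Gm9761, had 22.2 to 28.1 and 32.6 to 36.9 FPKM (log2 change 0.43, limma adjusted p = 0.00968). These 3 copies and their parent genes were all called higher.

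The copy of Srsf5, Gm12966, was called higher like its parent gene (0.31, limma adjusted p = 0.0107), as was a further copy of Srsf3, Gm12355 (0.44, adjusted p = 0.00398). Gm2991, a copy of Snrpc, fell from between 3.11 and 3.32 FPKM to between 2.19 and 2.42 FPKM (log2 change -0.36, limma adjusted p = 0.00295), while Snrpc itself was not called. When the copies were added to their members by length, in a fit chosen after the values had been seen, 24 members rose and 3 fell. Over all genes tested 24.5% rose and 18.8% fell in that fit. Lsm7 then had a log2 change of 0.47, Snrpg of 0.30, Srsf3 of 0.52 and Snrpd1 of 0.70, all called, and only Srsf10 lost its call (0.10, adjusted p = 0.0554). In addition, exons of 14 members overlap a gene on the opposite strand, among them Srsf2 with Mfsd11 and Mettl23, which had means of 4.71 and 4.93 FPKM.

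Further parts of the splicing pathway were then counted, each list in full. Of 48 further spliceosome proteins 16 rose and 3 fell, with a median log2 change of 0.06, and the 39.6% called were fewer than the 43.3% over all genes tested (24.5% higher and 18.8% lower). The smallest p belonged to Ddx23, the U5 helicase of activation, which had 19.9, 19.4 and 20.7 FPKM in the WT co-cultures, against 27.3, 27.5 and 27.1 FPKM in the KO co-cultures (log2 change 0.43, limma adjusted p = 0.000112). Bud31, a protein of the activated spliceosome, rose from between 17.6 and 18.8 FPKM to between 26.8 and 30.1 FPKM (0.61, adjusted p = 0.000179). Smndc1, a splicing factor related to the SMN protein, fell from between 41.7 and 43.0 FPKM to between 30.5 and 33.9 FPKM (-0.39, adjusted p = 0.000618). At the other end, Slu7, which helps in the choice of the 3′ splice site, had 20.8 to 22.9 FPKM in the WT co-cultures, against 20.9 to 22.9 FPKM in the KO co-cultures.

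The hnRNP proteins, which coat nascent transcripts and often oppose SR proteins, were mostly higher. Of 25 genes 17 rose and 3 fell, beside 24.5% and 18.8% over all genes tested, with a median log2 change of 0.25. Hnrnpa2b1 had 86.9, 86.6 and 89.8 FPKM in the WT co-cultures, against 136, 135 and 136 FPKM in the KO co-cultures (log2 difference 0.62, SE 0.021, adjusted p by limma = 4.81e-06). Hnrnph1 rose from between 19.3 and 19.7 FPKM to between 28.9 and 29.9 FPKM (0.57, adjusted p = 1.59e-05), and Pcbp1 from between 133 and 135 FPKM to between 159 and 164 FPKM (0.27, adjusted p = 9.7e-05).

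Both directions were found among the genes that assemble snRNPs and among the kinases of SR proteins and SR-related proteins. Of 17 assembly and import genes 5 rose and 4 fell (median log2 change 0.02), beside 24.5% and 18.8% over all genes tested. Snupn, the adaptor that returns assembled snRNPs to the nucleus, fell from 8.56, 9.33 and 8.92 FPKM to 6.66, 6.40 and 6.85 FPKM (-0.38, limma adjusted p = 0.00109), and Phax, the export adaptor of snRNAs, fell as well (-0.19, adjusted p = 0.00433). Gemin4, of the SMN complex, rose (0.29, adjusted p = 0.00334). Of 17 SR-protein kinases and SR-related proteins 2 rose and 4 fell (median -0.02). The 35.3% called were fewer than the 43.3% over all genes tested (24.5% higher and 18.8% lower). Clk3, a kinase of SR proteins, had 5.93, 5.67 and 5.74 FPKM in the WT co-cultures, against 3.88, 3.93 and 3.54 FPKM in the KO co-cultures (-0.51, limma adjusted p = 0.000481), Clk4 fell (-0.19, adjusted p = 0.00752) and Srpk2 rose (0.23, adjusted p = 0.00618).

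In the exon junction complex, which is laid down on spliced mRNA, 3 of 7 genes rose and none fell. The 42.9% called were close to the 43.3% over all genes tested (24.5% higher and 18.8% lower). The 3 were Rbm8a (0.22, limma adjusted p = 0.000583), Magoh (0.45, adjusted p = 0.00555) and Eif4a3 (0.14, adjusted p = 0.0167), which encode core proteins of the complex. Magohb was not called (0.03, limma adjusted p = 0.831). Of 8 genes of the minor spliceosome above the minimum 2 rose and 2 fell (median -0.110), near the 24.5% and 18.8% over all genes tested. Snrnp25, a protein of its U11/U12 particle, rose from 10.9, 11.7 and 8.21 FPKM to 16.8, 19.2 and 17.6 FPKM (0.75, adjusted p = 0.00392), and Pdcd7 fell (-0.32, adjusted p = 0.0032).

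Cell cycle genes were mostly higher as well. Of 25 cell cycle genes 20 rose and 1 fell, beside 24.5% and 18.8% over all genes tested, with a median log2 change of 0.26. Pcna, the sliding clamp of DNA replication, had 93.5, 98.2 and 92.0 FPKM in the WT co-cultures, against 149, 146 and 147 FPKM in the KO co-cultures (0.64, limma adjusted p = 1.4e-05). Mki67, a protein of dividing cells, rose from between 48.9 and 50.7 FPKM to between 63.9 and 66.3 FPKM (0.38, adjusted p = 8.12e-05). The part of cell division in the rises of the splicing factor genes was not tested.

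**Figure D4:**
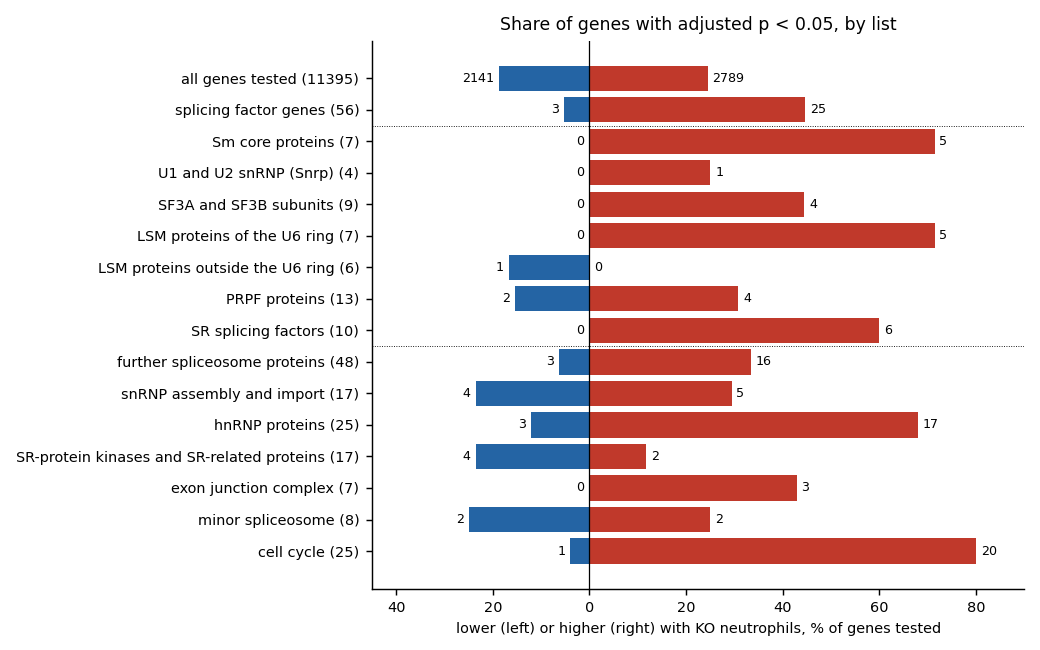
Percent of the genes tested in each list with an adjusted p under 0.05 (limma), higher with KO neutrophils to the right and lower to the left, with the number of genes at each bar and the number tested in brackets. The splicing factor genes have 25 higher and 3 lower of 56, beside 2789 higher and 2141 lower of 11395 for all genes, and the lists with the largest share of rises are the cell cycle and, among the role groups, the Sm core and the U6 ring of LSM proteins.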

How the data were processed

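Microglial RNA-seq values of 6 libraries, 3 for each neutrophil genotype, were analysed, and sample titles gave the group and the replicate number. The authors deposited them as FPKM, in a single table with a column for each library and a row for each of 55335 gene identifiers, and 0 value columns were left unused. The submitters' processing notes name fastp 0.17.1 and HISAT2 2.1.0. The quantification program, the genome build, the annotation and the use of strand are not given in the sources used here, and labels and methods name different RNA and library kits. The authors' own test ran on counts, which were not used here, so their calls can differ from those given.

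Symbols, lengths and positions came from GENCODE M21 (GRCm38), which may not be the authors' annotation (55154 identifiers matched, 181 did not). FPKM carries no depth. Low values of genes with a single transcript lay near whole multiples of a common step in only 21.5% to 31.4% of cases. The tolerance was one that 10% of values would meet by chance. Reads were therefore not recovered, and precision was judged from the spread between libraries.

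Values were taken as log2(FPKM + 1), which understates the change of low genes, and KO minus WT neutrophils was fitted in limma 3.58.1 (R 4.3.3, eBayes with a trend of variance on level, no covariates). All 11395 genes whose mean reached 1 FPKM were fitted and Benjamini-Hochberg adjusted together, with calls at 0.05. The fit was tested on simulated data with known changes. An exact two-sided permutation test was added gene by gene (smallest possible p 0.1). Copies were sought with BLAST+ 2.17.0. Members and lists were chosen with earlier results of these data known, and no list was tested as a set. By rule, full statistics were given for at most 4 members of a role group, those with the smallest p, and for 3 genes of each further list, plus some with the largest p. Of the 56 genes 1 is counted but not reported singly here. Srsf1, Lsm10 and others outside the rule were named with their values seen.

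Alternatives were a pseudocount of 0.1, no filter or a mean of at least 5 FPKM, a common sum with and without mitochondrial genes, median centring, quantile normalization, no variance trend, library weights, the replicate number as a block, each library left out, and a correction for length and GC content (mgcv 1.9.3). The addition of near-identical copies and a common sum at the mean of the deposited sums were chosen after seeing the data.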

Additional observations from a re-analysis of the deposited data

How the results depend on the processing

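The counts of called splicing factor genes changed little under most alternatives. With all 6 libraries 24 to 28 were called, and 22 to 25 were higher except with a common sum over all genes (19 higher). Over all genes 9.75% were higher and 8.13% lower with no filter, and 29.4% and 21.6% when the minimum mean was 5 FPKM. With 1 library left out at a time, 24 to 29 were called, 22 to 24 were higher, 2 to 5 were lower (over all genes tested 20% to 21.1% and 15.8% to 16.1%), the median log2 change was 0.112 to 0.138, and 36 to 40 genes had no overlap (64.3% to 71.4%, beside 62.3% to 63% of all genes tested). Of the 28 called genes 21 kept their call under every alternative that tested them. The other 7 were Lsm2, Lsm8, Prpf31, Prpf4, Snrpb2, Srsf10 and Srsf5.

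On the TPM scale 7 genes were lower instead of 3, and the median log2 change was 0.077. This scale changes both the sums and the weight of the pseudocount. With a common sum at the mean of the deposited sums, chosen after seeing the data, which leaves that weight nearly as it was, again 19 were higher and 7 lower, with a median of 0.074. Of 1014 planned comparisons 948 gave the same direction and call or nearly the same count, 32 lost a call, 15 gained one, 3 values moved and 16 changed sign, the last all for genes called neither before nor after. The sign changed on the TPM scale for Prpf39 (-0.011), Sf3b4 (-0.025) and Srsf4 (-0.004), at the mean of the deposited sums for the same genes (-0.009, -0.025 and -0.004), and with the length and GC correction for Lsm12 (0.008) and Srsf7 (0.013). With 1 library left out the log2 change ran from -0.049 to 0.013 for Lsm1, -0.068 to 0.022 for Lsm12, -0.224 to 0.021 for Lsm14b, -0.132 to 0.044 for Lsm5, -0.113 to 0.116 for Prpf38b, -0.012 to 0.053 for Sf3b4 and -0.093 to 0.017 for Snrpa. Calls were gained on the TPM scale for Lsm4, Prpf38a, Prpf6 and Snrpa1 (lower), without WT replicate 2 for Lsm5, Prpf38a and Snrpa1 (lower), without KO replicate 3 for Prpf18 (lower) and Sf3a2 (higher), and with the length and GC correction for Lsm4 (lower) and Sf3b1 (higher). The cause was not tested.

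Same-numbered libraries did not deviate together (correlations -0.0751, -0.0524 and -0.00518). With the replicate block 27 splicing factor genes were called, 24 higher and 3 lower (20.8% and 16.1% of all genes tested). Lsm8 (adjusted p = 0.0851) and Prpf4 (0.0935) lost their call and Prpf38a (0.0392) gained one.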
